A study of Mus musculus with 59 samples.

Results

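The 51 genes described here encode developmental transcription factors of 9 families, taken by gene symbol out of the 22134 genes listed in the count data of 14 single mouse epiblasts. They comprise 8 Pax, 8 Lhx, 7 Nkx, 3 sine oculis-related (Six2, Six3 and Six6), 6 Dlx, 6 Irx, 7 Tbx, 4 Neurod/Neurog and 2 Fox genes, and all 51 were listed. The choice of members was made with earlier results of these data known. Each epiblast, the pluripotent layer that gives rise to the embryo proper, was dissected at E6.25 from a heterozygous cross, and its transcriptome was sequenced from amplified RNA. In the first cross, 4 epiblasts lacked Ehmt2 (Ehmt2-/-), which encodes the H3K9 dimethyltransferase G9a, and 4 were controls. In the second, 3 epiblasts lacked Ezh2 (Ezh2-/-), the catalytic subunit of the H3K27 methyltransferase complex PRC2, and 3 were controls. The sample labels give the controls as wild type and the background as mixed, whereas the methods also allow heterozygous controls. Heterozygous and wild-type controls therefore cannot be told apart. The Ehmt2 allele derives from a published conditional one and was bred together with the ΔPE-Pou5f1-EGFP reporter, and the Ezh2 allele had been described before. In such crosses the enzyme is lost from extraembryonic tissue as well as from the epiblast.

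These regulators bind DNA through paired, homeobox, T-box, basic helix-loop-helix or forkhead domains and are best known from organ and neural patterning after gastrulation. In pluripotent cells their promoters, which are often rich in CG dinucleotides, are typical targets of PRC2 and its mark H3K27me3, while H3K9me2 laid down by G9a covers broad silent regions. The comparison of knockout and control asks whether such silent lineage genes are transcribed when either enzyme is missing. Because whole epiblasts were measured, more transcript per cell cannot be told apart from more cells that carry it.

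The promoters of 4 members are shown because all knockouts lay above all controls for these genes, in the Ehmt2 cross for Foxn4 and Neurod1 and in both crosses for Tbx20 and Nkx2-9. Of these, Foxn4 passed the adjusted test. Each line gives 300 bases of GRCm38.p6 from RefSeq, read 5′ to 3′ on the minus strand, from 250 bases before to 50 bases after the transcription start, with CG dinucleotides in capitals. The windows are chr5:114273712-114274011 for Foxn4, chr2:79456587-79456886 for Neurod1, chr9:24774254-24774553 for Tbx20 and chr12:56613235-56613534 for Nkx2-9.
Foxn4: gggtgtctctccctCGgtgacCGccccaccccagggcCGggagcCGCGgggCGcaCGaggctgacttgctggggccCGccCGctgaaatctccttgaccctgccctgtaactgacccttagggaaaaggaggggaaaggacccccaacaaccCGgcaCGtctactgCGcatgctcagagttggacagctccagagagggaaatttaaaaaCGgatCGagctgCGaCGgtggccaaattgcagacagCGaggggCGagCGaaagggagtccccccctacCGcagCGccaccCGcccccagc
Neurod1: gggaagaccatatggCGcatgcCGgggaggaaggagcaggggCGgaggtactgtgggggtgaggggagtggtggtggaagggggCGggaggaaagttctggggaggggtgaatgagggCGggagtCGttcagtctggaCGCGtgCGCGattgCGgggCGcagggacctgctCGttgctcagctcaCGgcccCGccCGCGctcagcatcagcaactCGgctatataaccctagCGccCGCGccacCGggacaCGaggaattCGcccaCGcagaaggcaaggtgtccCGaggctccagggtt
Tbx20: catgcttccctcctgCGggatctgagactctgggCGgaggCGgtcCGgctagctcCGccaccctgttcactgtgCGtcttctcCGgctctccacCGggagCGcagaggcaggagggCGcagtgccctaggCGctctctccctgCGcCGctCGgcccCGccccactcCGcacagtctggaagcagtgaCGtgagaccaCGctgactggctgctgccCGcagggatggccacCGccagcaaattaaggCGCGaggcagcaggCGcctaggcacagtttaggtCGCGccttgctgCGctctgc
Nkx2-9: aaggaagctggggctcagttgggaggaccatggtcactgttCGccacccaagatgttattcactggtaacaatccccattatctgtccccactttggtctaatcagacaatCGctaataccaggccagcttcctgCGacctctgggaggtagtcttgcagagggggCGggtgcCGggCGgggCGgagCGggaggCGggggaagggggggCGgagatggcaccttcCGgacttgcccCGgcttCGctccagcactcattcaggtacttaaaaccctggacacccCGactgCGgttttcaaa

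These windows hold 22 CG dinucleotides at Foxn4, 26 at Neurod1, 26 at Tbx20 and 15 at Nkx2-9. A promoter of the same length was found in the RefSeq table for 38 of the 51 members, among them 33 within 500 bases of the start of the counted transcript, and Tbx15, Foxj1, Dlx3 and Irx1 were among the 13 without one. The 38 windows hold between 4 CG (Lhx8) and 40 CG (Nkx6-1), with a median of 18.5, against a median of 7.0 over all 32851 promoters of this length. At least 10 CG were present in 33 of the 38 (86.8%), compared with 43.5% of all promoters. The motif TATAAA was searched on both strands and occurred in 1 member window, that of Tbx4 (2.6%), compared with 13.6% of all. This Tbx4 window lies 10343 bases from the start of the counted transcript. No DNA methylation or histone data were analysed here, so these letters describe the sequence only.

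**Figure D1:**
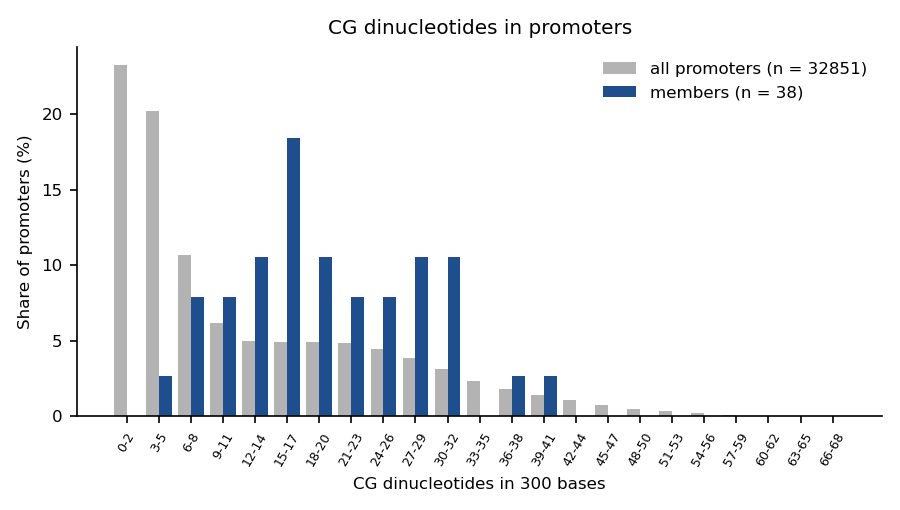
Share of promoters (y axis, %) by the number of CG dinucleotides in 300 bases (x axis, bins of 3), for the 38 members with a promoter in the table (blue) and all 32851 promoters (grey). The members have a median of 18.5 CG and all promoters a median of 7.0.

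Levels are given as CPM, the count relative to the library size after TMM scaling within each cross, with 1 transcript per gene. The 14 libraries held between 12495094 and 28434545 counts in this form, and the 2 deepest were Ehmt2 control 4 and Ehmt2 knockout 4. These 2 stood apart from the other Ehmt2 libraries: chi-square over its degrees of freedom reached 160 to 211 against replicates of their own group and 17.6 to 33.3 among the others, so the test for this cross had a term for them. Ehmt2 transcript fell in its knockouts, from 25.4, 27.7, 38.7 and 77.9 CPM in controls 1 to 4 to 11.8, 11.2, 7.96 and 21.4 CPM (log2 fold change −1.65, SE 0.22, adjusted p = 0.00354). Ezh2 was at 132, 166 and 276 CPM in its controls and at 28.8, 29.4 and 40 CPM in its knockouts, a difference that missed the adjusted threshold (log2 fold change −2.55, SE 0.27, adjusted p = 0.0789). All 10 epiblast markers were tested in both crosses. In Ehmt2 knockouts Sall2 (log2 fold change −0.76, SE 0.14, adjusted p = 0.0231) and Fgf5 (−0.72, SE 0.14, adjusted p = 0.0307) had an adjusted p under 0.05, and all knockouts lay below all controls for Otx2, Dnmt3b and Sall2. None of the 10 had a log2 fold change beyond 1.4 in either cross. Their summed level was between 6740 and 7620 CPM in Ehmt2 controls and between 3990 and 5440 CPM in Ehmt2 knockouts. In the Ezh2 cross the sums were 6790 to 7290 CPM in controls and 5410 to 7180 CPM in knockouts. Dnmt3b made up the largest part of the Ehmt2 sums, at 3720 to 5070 CPM in controls and 2410 to 3450 CPM in knockouts. The markers other than Otx2, Dnmt3b and Sall2 overlapped between the Ehmt2 groups, and Sox2 had a log2 fold change of 0.26.

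In control epiblasts the members were at very low levels. The median member had 0.0493 CPM per kb of transcript in the Ehmt2 controls and 0.0570 CPM per kb in the Ezh2 controls, whereas the median listed gene had 1.20 and 1.33. Of the 51 members, 3 had at least 10 counts in every epiblast, 17 had fewer than 10 in every epiblast, and 31 lay between. Pax6, which directs eye and forebrain development, led in the Ehmt2 controls with 4.81 ± 1.4 CPM per kb (SD, n = 4), and had 4.19 ± 0.868 CPM per kb (SD, n = 3) in the Ezh2 controls. Lhx1, a homeobox gene of the head organizer, had 1.57 ± 2.42 and 7.17 ± 12.0 CPM per kb, with a range of 0.167 to 21.1 CPM per kb in the Ezh2 controls. Nkx6-2, a neural tube gene counted here on a transcript annotated for nonsense-mediated decay, had 1.78 ± 2.36 and 1.13 ± 0.489 CPM per kb. Six2, which maintains nephron progenitors, had 0.983 ± 0.867 and 1.29 ± 1.02 CPM per kb. The ranges of these 4 genes overlapped in the Ehmt2 controls except for Pax6, at 3.70 to 6.83 CPM per kb, and Six2, at 0.0607 to 1.79 CPM per kb, so only the order of this pair exceeded the spread between the Ehmt2 controls. In the Ezh2 controls Pax6, at 3.65 to 5.19 CPM per kb, lay above Nkx6-2, at 0.561 to 1.44, and Six2, at 0.613 to 2.46, while Lhx1 overlapped all 3.

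**Figure D2:**
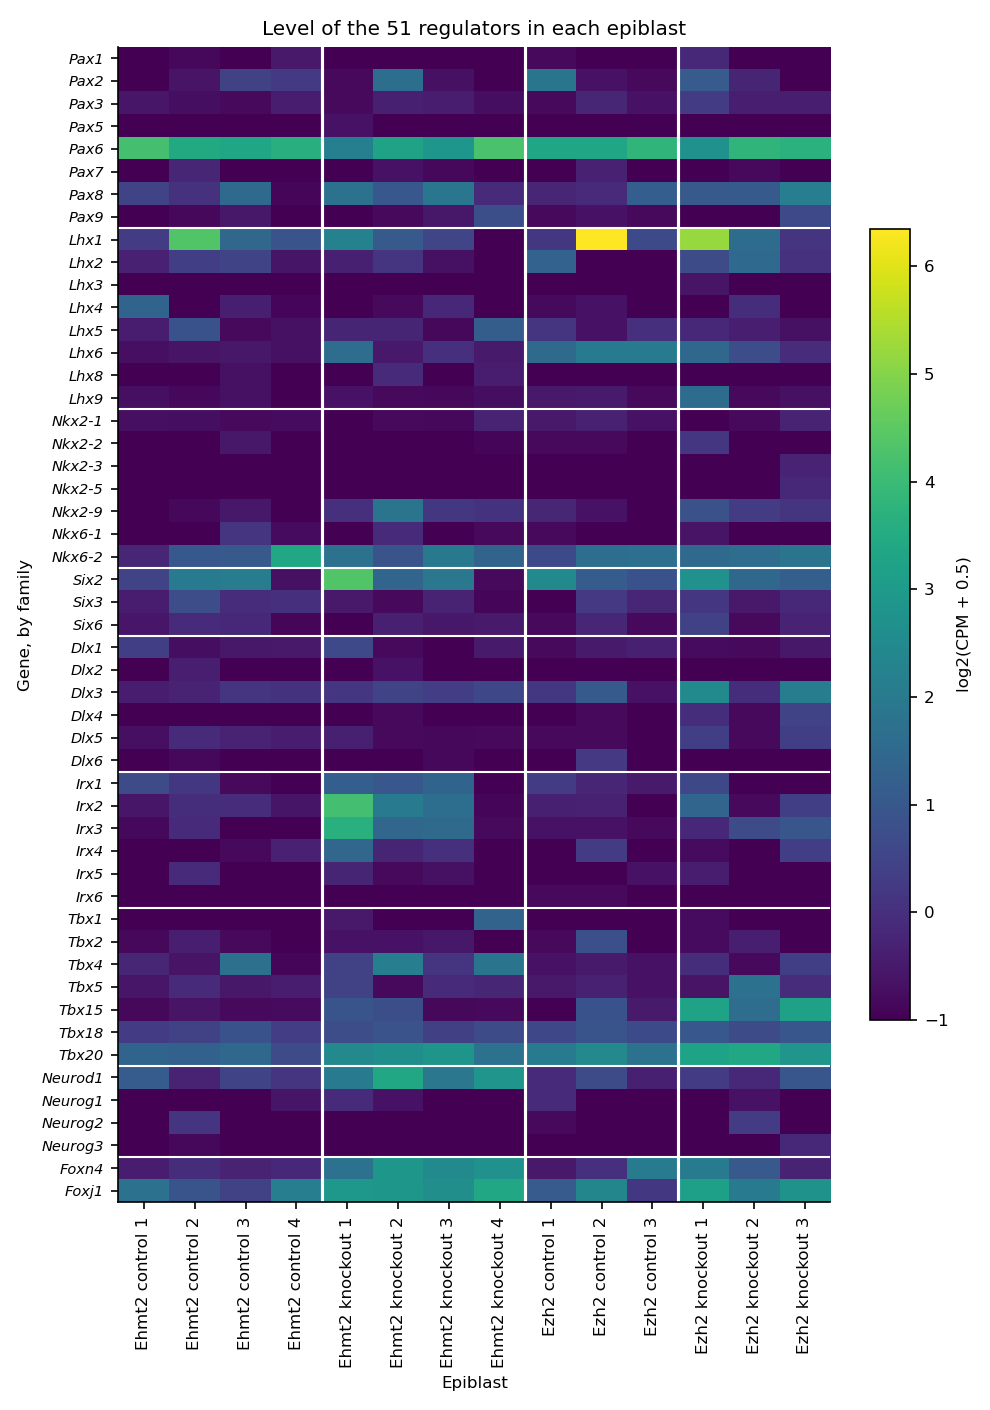
Level of the 51 members (rows, by family) in the 14 epiblasts (columns), as log2(CPM + 0.5) in colour, with white lines between families and groups. Pax6 is bright throughout, Lhx1 is brightest in Ezh2 control 2 and Ezh2 knockout 1, and most rows are dark in most epiblasts.

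At a level of 1 CPM, more members were detected in knockout than in control epiblasts of the Ehmt2 cross. At 1 CPM or more there were 6, 8, 8 and 5 members in Ehmt2 controls 1 to 4 and 17, 17, 11 and 12 in Ehmt2 knockouts 1 to 4. In the Ezh2 cross there were 8, 12 and 9 in the controls and 18, 14 and 12 in the knockouts, and the highest control equalled the lowest knockout. Over all listed genes the share at 1 CPM or more was between 56.0% and 62.4% in every epiblast. The difference in the Ehmt2 cross depended on the level. At 0.5 CPM the groups overlapped, with 10 to 14 members in controls and 13 to 20 in knockouts. At 2 CPM they were apart, with 3 to 6 in controls and 8 to 13 in knockouts. The Ezh2 groups were apart at 2 CPM too, with 5 to 6 and 7 to 12. These other levels were chosen after seeing the data. With 1 count or more there were 29, 38, 35 and 30 members in Ehmt2 controls 1 to 4 and 33, 40, 35 and 30 in knockouts 1 to 4. The mean knockout level was above the mean control level for 32 of the 51 members (62.7%) in the Ehmt2 cross and for 35 (68.6%) in the Ezh2 cross, compared with 50.2% and 49.3% of listed genes.

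In the Ehmt2 cross, Foxn4 rose in the knockouts and was the 1 member called, while none was called lower. A gene was called at an adjusted p under 0.05 in edgeR's quasi-likelihood test, with Benjamini-Hochberg adjustment over all 13749 genes tested, and a log2 fold change beyond 1.4. The background was 0.815% of tested genes called higher and 0.0873% called lower. Only 13 of the 51 members (25.5%) passed the filter on low counts, compared with 62.1% of listed genes, and 38 were not tested. Foxn4 and Dlx3 passed it through their knockouts alone, the group where they are high. At an unadjusted p the members beyond 1.4 were Foxn4, Foxj1, Neurod1 and Tbx20 on the higher side (background 2.74%) and Lhx1 on the lower side (background 1.11%). DESeq2 called these 4 genes higher (background 1.64%) and none lower (background 0.451%). A per-embryo rule modelled on the methods requires a change beyond 1.4 in every knockout and a combined unadjusted p under 0.05. It also asks for at least 5 scaled counts in every epiblast of the higher group, and it kept the term for replicate 4. The floor of the methods is instead set on levels per transcript length. By this rule Foxn4 and Neurod1 were higher (background 0.858%) and none lower (background 0.225%).

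Levels in the groups were also compared without any filter. All 4 Ehmt2 knockouts lay above all 4 controls for 7 of the 51 members (13.7%), namely Dlx3, Foxj1, Foxn4, Lhx6, Neurod1, Nkx2-9 and Tbx20, compared with 2.55% of all listed genes. Because the members were chosen with earlier results of these data known, this share describes the list and is no test of it. No member had all 4 knockouts below all controls (background 2.08%). For each of the 7 a two-sided exact permutation test gave p = 0.0286, the smallest that 4 epiblasts against 4 allow and not adjusted. The 7 genes were the same without TMM scaling, and when counts were summed over all transcripts.

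Foxn4 and Foxj1, the forkhead genes among the members, were both higher in Ehmt2 knockouts. Foxj1 is also among the genes that the paper measured by single-cell RT-qPCR. The forkhead genes tested in the lists of related genes described below went both ways. The rest of the family was not examined, so no trend of the family is shown. Foxn2 had a log2 fold change of 0.69 (SE 0.23). Foxd3 had −0.57 (SE 0.25), Foxn3 −0.33 (SE 0.15) and Foxc1 −0.18 (SE 0.89). Foxn4, needed for retinal progenitors and spinal interneurons, was at 0.243, 0.477, 0.327 and 0.386 CPM in control epiblasts 1 to 4, and at 2.93, 6.96, 5.06 and 6.10 CPM in knockout epiblasts 1 to 4. The lowest knockout was thus well above the highest control, and mean levels differed 14.7-fold. The log2 fold change was 3.84 (SE 0.57, 95% interval 2.72 to 4.96, adjusted p = 0.00779), with all 4 knockouts above the control mean. The gene was counted on ENSMUST00000044790 (chr5:114254164-114273807, GRCm38, minus strand), where controls had 4 to 9 counts and knockouts 42 to 167. It thus passed the filter on low counts through the knockouts. In the fit without this filter its adjusted p was 0.00221. Foxn4 was called under all 16 alternatives tried, with an adjusted p between 8.69e-08 and 0.0436. Foxj1, the master regulator of motile cilia, had 2.85, 1.38, 0.851 and 3.95 CPM in controls and 7.04, 6.89, 5.75 and 10.1 CPM in knockouts. The groups did not overlap, and the log2 fold change was 1.79 (SE 0.45, adjusted p = 0.0872), which passed in DESeq2 (adjusted p = 0.00628).

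Among the neurogenic basic helix-loop-helix genes, Neurod1 differed and the 3 Neurog genes were nearly silent. Neurod1, which drives neuronal and endocrine differentiation, had 1.70, 0.318, 0.916 and 0.601 CPM in Ehmt2 controls and 3.48, 10.1, 3.29 and 6.58 CPM in knockouts. Knockouts 2 and 4 were the highest, and every knockout exceeded every control. The log2 fold change was 2.75 (SE 0.65, adjusted p = 0.0669), and the test passed in 2 of 16 alternatives, DESeq2 and the fit without a filter. Neurod1 shares 201 exon bases with Cerkl on the same strand and 154 with Gm26755 on the opposite strand. Neurog1, Neurog2 and Neurog3 were at 0.582 CPM or less in every Ehmt2 epiblast.

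Of the 7 T-box genes, Tbx20 was the 1 whose Ehmt2 groups did not overlap, and all 7 had a higher mean in the knockouts. The family summed to 2.27 to 6.74 CPM in controls and 8.59 to 12.4 CPM in knockouts, but without Tbx20 the sums overlapped, at 1.16 to 4.45 CPM in controls and 2.09 to 6.69 CPM in knockouts. Tbx20, a gene of heart development, had 2.06, 1.91, 2.29 and 1.12 CPM in controls and 4.95, 5.76, 6.51 and 2.85 CPM in knockouts. The groups were apart, although knockout 4 and control 4 were both the lowest of their group. Its log2 fold change was 1.43 (SE 0.43, adjusted p = 0.15, DESeq2 adjusted p = 0.0407). Tbx4, a gene of hindlimb and allantois, and Tbx18, of the epicardium, were tested and overlapped between the groups. Tbx1, of the pharyngeal arches, had no count in any control and reached 2.05 CPM in knockout 4 and 0.209 CPM in knockout 1.

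**Figure D3:**
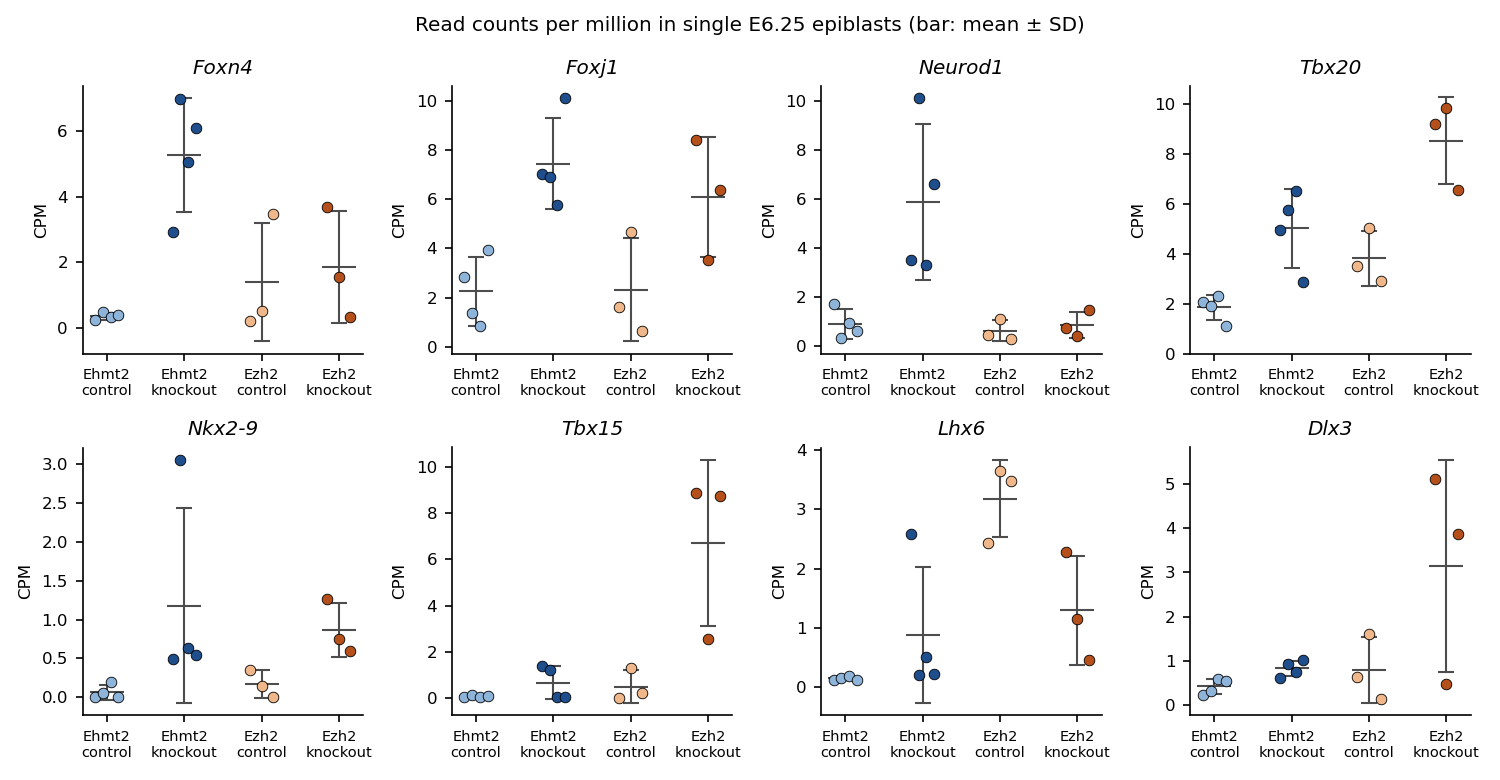
CPM (y axis) of 8 members in each epiblast (points) of the 4 groups (x axis), with the mean and SD as bars. Foxn4 sits at 0.243 to 0.477 CPM in Ehmt2 controls and 2.93 to 6.96 CPM in Ehmt2 knockouts, while in the Ezh2 cross Tbx15 and Tbx20 are the tested members whose knockouts all lie above the controls.

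The Iroquois genes, which pattern the neural plate and heart, split the Ehmt2 knockouts. Irx2 had 0.182, 0.477, 0.458 and 0.172 CPM in controls and 17.3, 3.48, 2.65 and 0.0366 CPM in knockouts. Irx3 had 0.0606, 0.424, 0.0 and 0.0 CPM in controls and 12.1, 2.20, 2.40 and 0.0731 CPM in knockouts. Both were therefore high in knockouts 1 to 3 and at or below control level in knockout 4, and neither passed the filter on low counts. Irx4 had 2.16, 0.355, 0.506 and 0.0 CPM in knockouts and at most 0.3 CPM in controls. Irx1 had 1.81, 1.49, 2.09 and 0.0 CPM in knockouts and 1.09, 0.635, 0.0654 and 0.0 CPM in controls (log2 fold change 1.53, SE 0.91, adjusted p = 0.486). Irx1, Irx2 and Irx4 lie in a cluster on chromosome 13 and Irx3, Irx5 and Irx6 in another on chromosome 8, of which Irx5 did not exceed 0.424 CPM and Irx6 had no count in this cross.

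Leaving out knockout 4 or control 4, or both, changed the calls for this family, and so did dropping the filter on low counts. With all 8 epiblasts and no filter, Irx3 was called (log2 fold change 4.92, SE 1.05, adjusted p = 0.0157) and Irx2 was not (adjusted p = 0.107). Without control 4 and knockout 4, Irx2 (log2 fold change 4.35, SE 0.83, adjusted p = 0.0264) and Irx3 (4.96, SE 1.09, adjusted p = 0.045) were called beside Foxn4, so that 3 members were called, at a background of 1.35% called higher. The same 3 were called without knockout 4 alone and without control 4 alone, when the term for replicate 4 is taken up by the remaining epiblast. Without knockout 4, 11 members had knockouts all above controls (background 6.07%), the 4 additional ones being Irx1, Irx2, Irx3 and Irx4. These 4 Irx genes were singled out after their values were seen. Without control 4, knockout 4 or both, Irx2 and Irx3 passed the filter through knockouts 1 to 3, the epiblasts where they are high. There Irx2 had 248, 49 and 42 counts and Irx3 had 173, 31 and 38, against 0 to 9 in controls. Knockout 4 had 1 and 2 counts. These calls are therefore no separate support for a rise.

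The mean level of markers of extraembryonic ectoderm, the trophoblast layer that borders the epiblast, moved with the Iroquois genes, but not every marker did. All 11 markers were tested and 5 were called higher in Ehmt2 knockouts (Elf5, Tfap2c, Bmp4, Esrrb and Sox21, background 0.815%). None was called lower (background 0.0873%). Their mean level on the log2(CPM + 0.5) scale was 1.25, 1.77, 1.58 and 0.42 in controls 1 to 4 and 5.51, 3.93, 4.12 and 0.35 in knockouts 1 to 4, so that it too was high in knockouts 1 to 3 and low in knockout 4. Their summed level was between 62.4 and 318 CPM in controls and between 49.3 and 877 CPM in knockouts, and in knockout 4 Elf5, Cdx2, Tfap2c, Sox21, Wnt7b and Hand1 were at 0. The part of these markers in the Iroquois values was not tested.

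**Figure D4:**
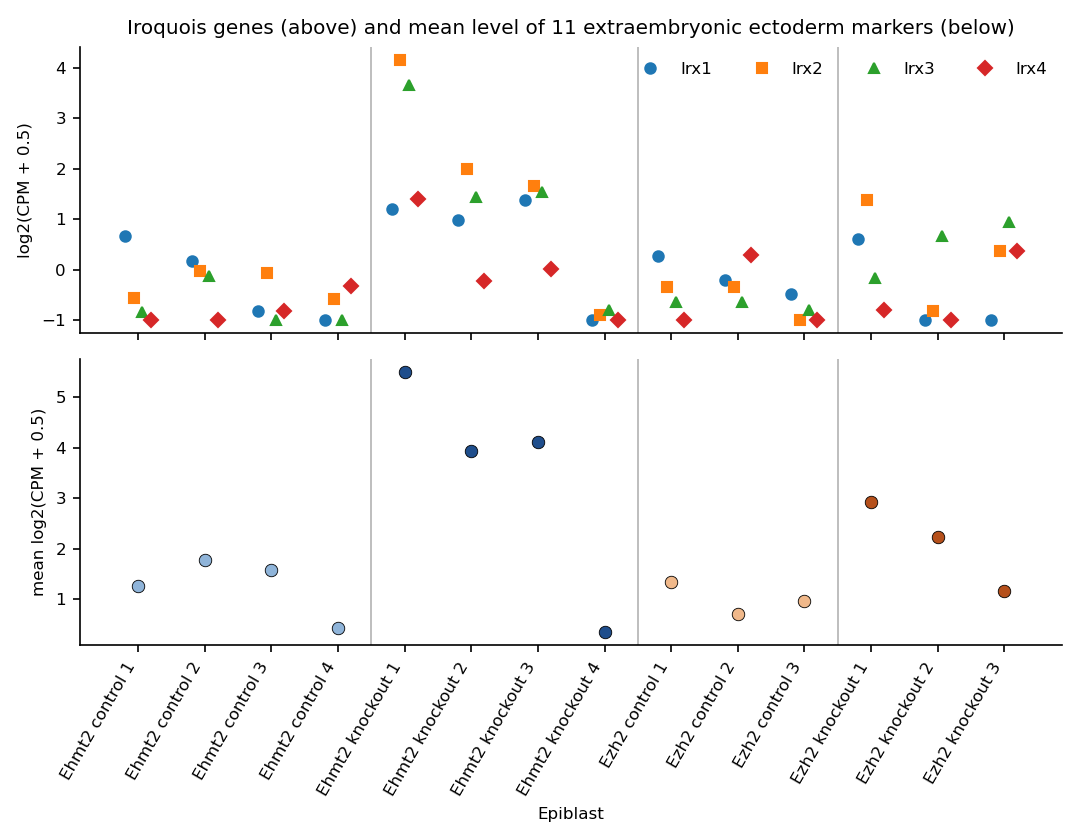
Level of Irx1 to Irx4 (upper panel, log2(CPM + 0.5)) and mean level of 11 extraembryonic ectoderm markers (lower panel, mean log2(CPM + 0.5)) in each of the 14 epiblasts (x axis). Ehmt2 knockouts 1 to 3 have the highest marker means, 5.51, 3.93 and 4.12, and the highest Irx2 and Irx3 levels, and Ehmt2 knockout 4 is low in both.

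Another 2 members of the Lhx and Nkx families differed without overlap in the Ehmt2 cross but failed the filter. Nkx2-9, a gene of the ventral neural tube, had 0, 1, 3 and 0 counts in controls and 7, 43, 10 and 15 counts in knockouts, which is 0.0 to 0.196 CPM against 0.488 to 3.06 CPM. Every knockout was above every control, and knockout 2 was the highest. Lhx6, known from migrating cortical interneurons, had 2 to 3 counts in controls and 37, 3, 8 and 6 in knockouts, with knockouts 2 and 4 close to the controls at 0.213 and 0.219 CPM. The limit of 3 counts was 0.110 to 0.213 CPM in this cross, so the low levels of both genes were near what the depth can show. Nkx2-3, Nkx2-5 and Lhx3 had no count in any of these 8 epiblasts.

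Lhx1 was uneven within groups rather than between them. It had 0.728, 20.0, 2.16 and 1.37 CPM in Ehmt2 controls and 4.18, 1.56, 0.948 and 0.0 CPM in Ehmt2 knockouts (log2 fold change −2.35, SE 1.05, adjusted p = 0.334). Control 2 alone carried the high mean. Without it, as without control 4 or knockout 2, 3 or 4, the gene did not pass even at an unadjusted p. The summed level of 10 primitive streak and mesoderm markers was 210 CPM in control 2 and between 18.1 and 89.4 CPM in the other 7 epiblasts of the cross. In the Ezh2 cross Lhx1 had 0.642, 81.0 and 1.08 CPM in controls and 36.7, 2.51 and 0.591 CPM in knockouts (log2 fold change −1.06, SE 1.67, adjusted p = 0.923). The high epiblasts, control 2 and knockout 1, also had summed levels of 12 visceral endoderm markers of 3190 and 7070 CPM, compared with 88.7 to 134 CPM in the other 4. The part of either marker group in the Lhx1 values was not tested.

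The remaining tested members of the Pax, Nkx and Dlx families, and Six2, did not pass in the Ehmt2 cross. Pax6 had 17.8, 10.6, 9.62 and 12.0 CPM in controls and 3.97, 8.95, 6.83 and 18.3 CPM in knockouts (log2 fold change −0.56, SE 0.39, adjusted p = 0.56). Six2 was high in knockout 1 alone, with 0.909, 3.49, 3.80 and 0.129 CPM in controls and 19.8, 2.13, 3.29 and 0.0731 CPM in knockouts, and its log2 fold change of 1.31 turned to −0.16 without knockout 1. Nkx6-2 had 0.364, 1.54, 1.57 and 10.1 CPM in controls and 2.86, 1.35, 3.41 and 2.05 CPM in knockouts. Dlx3, a gene of ectoderm and placenta, had 0.243, 0.318, 0.589 and 0.558 CPM in controls and 0.627, 0.924, 0.758 and 1.02 CPM in knockouts. The Dlx3 groups were apart by a small step, with a log2 fold change of 0.96 (SE 0.68, adjusted p = 0.565). The other 5 Dlx genes and the 6 Pax genes that were not tested had at most 37 counts in any Ehmt2 epiblast.

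In the Ezh2 cross no member passed the adjusted test. The T-box genes Tbx15 and Tbx20 were the tested members with every knockout above every control. Of the 51 members, 14 were tested (27.5%, compared with 63.3% of listed genes). No gene at all was called by edgeR among 14010 tested, so that the background is 0.00% in either direction, and the count for members was 0. At an unadjusted p, Tbx15 alone was beyond 1.4 on the higher side (background 1.66%) and none on the lower side (background 0.293%). DESeq2 called Tbx15 higher (adjusted p = 0.0156, background 0.328%) and no member lower (background 0.0143%). The per-embryo rule also gave Tbx15 alone as higher (background 0.771%), and none as lower (background 0.128%). Knockouts lay above all controls for 4 members (7.84%), Irx3, Nkx2-9, Tbx15 and Tbx20, against a background of 5.66%, and below all controls for 1 member, Lhx6, against 5.40%. With 3 epiblasts against 3 the two-sided exact permutation test cannot go below p = 0.1, which was its value for these 5 genes.

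Tbx15, a gene of skeletal and skin patterning, had 0.0, 1.31 and 0.217 CPM in Ezh2 controls and 8.86, 2.58 and 8.73 CPM in knockouts. Knockout 2 was closest to the controls, and mean levels differed 13.2-fold. The log2 fold change was 3.70 (SE 1.09, 95% interval 1.56 to 5.84, adjusted p = 0.456), and the alternatives gave 3.12 to 5.85. Counts on ENSMUST00000029462 (chr3:99253760-99354259, GRCm38, plus strand) were 0, 18 and 3 in controls and 113, 38 and 133 in knockouts. Tbx15 therefore passed the filter on low counts through the knockouts, where it is high. Tbx20 had 3.50, 5.03 and 2.89 CPM in controls and 9.18, 9.83 and 6.56 CPM in knockouts. Its spread within groups was small, and the log2 fold change was 1.16 (SE 0.39, 95% interval 0.39 to 1.94, adjusted p = 0.506). The 7 T-box genes summed to 4.48 to 9.47 CPM in controls and 16.7 to 20.3 CPM in knockouts, and 6 had a higher mean in the knockouts. Without Tbx15 and Tbx20 the sums overlapped, at 1.37 to 3.13 CPM in controls and 2.28 to 4.27 CPM in knockouts.

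Lhx6 was the member with all Ezh2 knockouts below all controls. It had 2.43, 3.64 and 3.47 CPM in controls and 2.28, 1.15 and 0.459 CPM in knockouts (log2 fold change −1.30, SE 0.69, adjusted p = 0.682). Knockout 1 was within 0.2 CPM of the lowest control. The Ezh2 controls were themselves far above the Ehmt2 controls, where Lhx6 did not exceed 0.196 CPM.

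Small increases without overlap were also seen for Nkx2-9 and Irx3, which failed the filter in the Ezh2 cross. Nkx2-9 had 5, 2 and 0 counts in controls and 16, 11 and 9 in knockouts. Irx3 had 2, 2 and 1 counts in controls and 5, 16 and 22 in knockouts, and it shares 124 exon bases with the antisense gene Irx3os. Extraembryonic ectoderm markers had a mean log2(CPM + 0.5) of 1.33, 0.71 and 0.96 in Ezh2 controls and 2.92, 2.23 and 1.16 in knockouts. Their part in the Irx3 values was not tested.

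Foxj1 and Dlx3 had higher means in Ezh2 knockouts with overlapping groups. Foxj1 had 1.64, 4.66 and 0.650 CPM in controls and 8.39, 3.53 and 6.37 CPM in knockouts (log2 fold change 1.39, SE 0.71, adjusted p = 0.673). Dlx3 had 0.642, 1.60 and 0.144 CPM in controls and 5.10, 0.475 and 3.87 CPM in knockouts. Dlx3, Dlx4 and Dlx5 were all higher in knockouts 1 and 3 than in knockout 2. Dlx4 and Dlx5 failed the filter and rest on few reads, with 6, 1 and 14 counts for Dlx4 and 10, 1 and 12 for Dlx5 in knockouts 1 to 3. Dlx1 had 1, 1 and 3 counts in these knockouts, and Dlx2 and Dlx6 had none. Foxn4 had 0.214, 0.510 and 3.47 CPM in controls and 3.69, 1.56 and 0.328 CPM in knockouts, so that control 3 reached the range of the Ehmt2 knockouts. Its log2 fold change was 0.40 (SE 1.11, 95% interval −1.77 to 2.58, adjusted p = 0.96). Neurod1 was between 0.289 and 1.44 CPM in all 6 epiblasts (log2 fold change 0.50, SE 0.85, adjusted p = 0.933). Pax6 had 9.49, 9.69 and 13.5 CPM in controls and 6.04, 13.6 and 12.4 CPM in knockouts, with a log2 fold change of −0.03 (SE 0.37, 95% interval −0.75 to 0.69).

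Without Ezh2 control 2 and knockout 1, which had the high visceral endoderm markers, no member was called either. Tbx15 kept its direction with a log2 fold change of 5.6 and Tbx20 with 1.36, and 9 members had both knockouts above both controls, at a background of 14.3%. Compared with 4 such members among all 6 epiblasts, there were 11 without knockout 2 alone (background 10.6%), with Dlx3, Dlx4, Dlx5, Foxj1, Irx2, Tbx4 and Tbx18 added, and 8 without control 2 alone (background 9.59%).

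**Figure D5:**
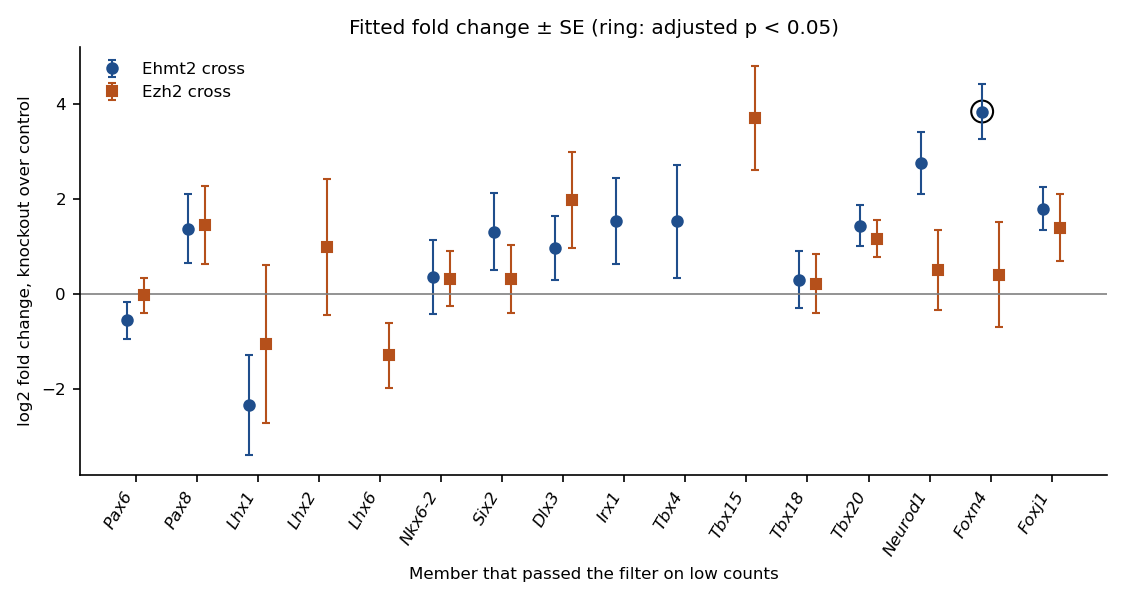
Log2 fold change of knockout over control (y axis) with its SE (bars) for each member that passed the filter on low counts (x axis), in the Ehmt2 cross (blue circles) and the Ezh2 cross (orange squares). The ring marks Foxn4 in the Ehmt2 cross, at 3.84, the member called, and genes with a single symbol were tested in 1 cross.

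Tbx20 and Nkx2-9 were the members whose knockouts lay above all controls in both crosses, which was the case for 58 of 22134 listed genes (0.262%). Tbx20 was the tested one of the pair, with log2 fold changes of 1.43 and 1.16. The difference of the Ezh2 and Ehmt2 effects was tested in all 14 epiblasts for 21 members, leaving 30 not tested, and none was called (background 0.0592% in each direction, edgeR). At an unadjusted p, the effect was lower in the Ezh2 cross for Foxn4, Lhx6 and Neurod1 (background 1.58%) and higher for none (background 2.56%). DESeq2 also called 0 members in either direction, at a background of 0.368% higher and 0.283% lower. For Foxn4 the difference was −3.43 (SE 1.24, adjusted p = 0.376), for Lhx6 −3.55 (SE 1.27, adjusted p = 0.371) and for Neurod1 −2.24 (SE 1.05, adjusted p = 0.522), all on the log2 scale. For Tbx20 it was −0.26 (SE 0.51, adjusted p = 0.911), and for Tbx15 1.31 (SE 1.75, adjusted p = 0.872).

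Related genes outside the 51 were followed as 2 lists. Of 31 paralogs of the same families, 28 were listed and 12 tested in each cross, and Nkx1-2, a homeobox gene of the caudal epiblast, was called lower in Ehmt2 knockouts. Nkx1-2 had 3.03, 10.5, 7.92 and 3.17 CPM in Ehmt2 controls and 1.53, 1.56, 1.01 and 0.256 CPM in knockouts (log2 fold change −2.66, SE 0.55, adjusted p = 0.0409). In the Ezh2 cross it had 0.714, 3.79 and 3.10 CPM in controls and 18.0, 21.1 and 34.3 CPM in knockouts (log2 fold change 3.27, SE 0.55, adjusted p = 0.25). The groups did not overlap in either cross and lay in opposite order, and the difference of the effects was 5.93 on the log2 scale (SE 0.79, adjusted p = 0.00604). No other paralog was called (background 0.815% higher and 0.0873% lower in the Ehmt2 cross, 0.00% in the Ezh2 cross). At an unadjusted p, Isl1, of motor neurons and heart, had a log2 fold change of 2.47 (SE 1.09, adjusted p = 0.621) in the Ezh2 cross. Of 42 other developmental regulators, 17 were tested in the Ehmt2 cross and 18 in the Ezh2 cross, and none was called, at the same backgrounds. Since no gene at all was called in the Ezh2 cross, the absence of calls there says nothing about these regulators. Among their largest differences at an unadjusted p were those of Hand1, Wt1 and Foxd3 in the Ehmt2 cross, with log2 fold changes of 2.5, 1.52 and −0.57, and of Zic1 and Hand1 in the Ezh2 cross, with 4.10 and 2.90. Hand1 is also 1 of the 11 extraembryonic ectoderm markers. Of the 39 regulators listed, 6 had all Ezh2 knockouts above all controls (background 5.66%) and 1 had them below (background 5.40%). In the Ehmt2 cross there were 0 above (background 2.55%) and 0 below (background 2.08%). Of the 28 paralogs, 5 lay above and 1 below in the Ezh2 cross, and 0 above and 3 below in the Ehmt2 cross.

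Of the 51 members, 16 had exons of another annotated gene over their counted transcript, 15 of them on the opposite strand. The longest such stretch was 931 bases, of D030062O11Rik over Tbx18. For these genes the reads of the partner cannot be told apart, since the strand setting of the counting was not given in the sources used here. Foxn4, Foxj1, Tbx20, Tbx15 and Nkx2-9 had none.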

How the data were processed

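Of each single E6.25 epiblast, 750 pg of RNA entered the Ovation RNA-seq System V2. Reads were cut by the authors to 40 nt and aligned with TopHat2 to GRCm38. The authors deposited counts per Ensembl release 74 transcript made with HTSeq, without normalization, in which a transcript missing from an epiblast was taken as 0. ChIP-seq and methylation samples were not analysed here.

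Of 72516 listed transcripts, 70021 (96.6%) matched GENCODE vM21, and each gene was represented by its transcript with the highest mean count. Genes were filtered with filterByExpr, scaled by TMM, fitted per cross with glmQLFit and tested with glmQLFTest (edgeR 4.0.16, R 4.3.3), with Benjamini-Hochberg adjustment, a term for replicate 4 in the Ehmt2 cross, and no replicate block. The difference of effects was a contrast over all 14 epiblasts. Intervals are 95%, and the limit of 3 counts covers counting error only. Code was tested on simulated data.

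The members and lists were chosen with earlier results of these data known. Values were given in full for members called, for tested members whose groups did not overlap and differed by more than 1 on the log2 scale, and for the 4 highest in controls, and others were named after their values were seen. Alternatives were DESeq2 1.42.0, RLE factors, no filter, all transcripts, summed transcripts, leaving out epiblasts, the replicate block, no comparison-set term and a per-embryo rule. Replicates are single embryos, and the labels do not say which shared a litter. Some related genes are not reported here.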

Additional observations from a re-analysis of the deposited data

Results flagged for a closer look

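One value among the members tested in the Ehmt2 cross lay apart from its group. Irx1 was at 0.0 CPM in Ehmt2 knockout 4, whereas knockouts 1 to 3 had 1.81, 1.49 and 2.09 CPM, and the gap to the nearest of them exceeded Dixon's 95% critical value for 4 samples on the log2(CPM + 0.5) scale. In all, 26 groups of 4 were examined in this way, and chance flags about 1 in 20. Control 4 of the same cross also had 0.0 CPM, and the cause was not tested.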

How the results depend on the processing

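The direction of Foxn4, Foxj1, Neurod1 and Tbx20 in the Ehmt2 cross and of Tbx15, Tbx20, Foxj1 and Lhx6 in the Ezh2 cross held under all alternatives in which they were tested. Shares in parentheses are those of all genes. In the Ehmt2 cross the count of members called higher was 4 with DESeq2 (1.64%), 3 without a filter on low counts (1.03%), 2 by the per-embryo rule (0.858%), 3 without control 4 and knockout 4 (1.35%), and 1 to 3 when each epiblast was left out in turn (0.346% to 1.30%). At an unadjusted p it was 8 without the filter (3.94%) or with summed transcripts (2.89%) and 3 to 8 without each epiblast (2.54% to 3.52%), and on the lower side 0 with summed transcripts, under the replicate block, with no comparison-set term or without control 4 and knockout 4 (1.20% or less in each), and 0 to 1 without each epiblast (0.933% to 1.50%). The median log2 fold change of tested members, 1.37 for the 13 that passed the filter (−0.01 over all genes tested), was 0.44 without it, when 47 entered. Members with groups that did not overlap were 11 higher (7.95%) and 1 lower (6.74%) without control 4 and knockout 4, and 7 to 11 higher (3.42% to 6.07%) and 0 to 1 lower (2.87% to 4.36%) without each epiblast. In the Ezh2 cross 1 member was called higher by DESeq2 (0.328%) and by the per-embryo rule (0.771%), and at an unadjusted p 3 without the filter (2.23%), 2 with summed transcripts (1.79%), 3 without control 2 and knockout 1 (1.83%), and 1 to 6 higher (1.64% to 3.59%) and 0 to 1 lower (0.343% to 0.714%) without each epiblast. The median, 0.45 for the 14 that passed the filter (0.01 over all genes tested), was 1.05 without the filter, 0.74 under the replicate block and 0.53 to 1.18 without each epiblast. Non-overlapping groups were 9 higher (14.3%) and 3 lower (14.4%) without control 2 and knockout 1, and 4 to 11 higher (9.14% to 10.6%) and 1 to 3 lower (8.90% to 9.73%) without each epiblast. In the difference of effects, 2 members were higher at an unadjusted p without the filter (2.70%) and 1 with summed transcripts (2.54%).

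Signs reversed for members that were not called. Without each epiblast in turn, the log2 fold change ran from −0.17 to 1.13 for Nkx6-2 and −0.16 to 1.64 for Six2 in the Ehmt2 cross, and in the Ezh2 cross from −0.56 to 2.32 for Foxn4, −4.15 to 3.92 for Lhx1, −0.12 to 1.23 for Neurod1, −0.01 to 0.53 for Nkx6-2, −0.24 to 0.25 for Pax6 and −0.42 to 1.18 for Six2. Nkx6-2 was at −0.49 in the Ehmt2 cross and 0.82 in the difference with no comparison-set term, and Pax6 at 0.04 in the Ezh2 cross with summed transcripts. Without control 2 and knockout 1, Foxn4 was at −0.96, Pax6 at 0.18, Lhx1 at 0.84 and Six2 at −0.67. The cause was not tested beyond the epiblasts, filter or feature that each alternative names. The fit without control 2 and knockout 1, the CPM without scaling factors and other levels for detection were chosen after seeing the data.

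Same-numbered samples did not all deviate together (correlations of 0.051, 0.105, 0.192 and 0.396 in the Ehmt2 cross and 0.056, −0.168 and 0.217 in the Ezh2 cross), so the replicate block was an alternative only, and it changed no adjusted call. Of the members, 3 had 10 or more counts in every epiblast, so for most members the depth, not only the number of epiblasts, limits what can be shown. At 0.5 CPM in place of 1 CPM the knockout mean exceeded the control mean by 5.5 members in the Ehmt2 cross and 6.67 in the Ezh2 cross, and at 2 CPM by 6.75 and 4.0. At 0.5 CPM the groups of the Ehmt2 cross overlapped.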
